A study of Mus musculus with 16 samples.

Results

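The DNA replication machinery was followed as a set of 40 genes in marrow CD8+ T cells, isolated by sorting from mice that had bone marrow failure (BMF), a condition in which the marrow loses its blood-forming cells. The members were taken by gene symbol from a list of replication genes, and all 40 were present among the 24394 named genes of the count table. They fall into 6 roles: origin licensing (4 genes), the replicative helicase and its activation (13), polymerases and primase (8), the sliding clamp and its loader (6), binding of single-stranded DNA with the joining of Okazaki fragments (4), and nucleotide supply (5).

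All 16 libraries were polyA RNA of mouse marrow CD8+ T cells (SMART-Seq mRNA LP kit, Illumina NovaSeq). There were 3 libraries of BMF mice treated with baricitinib (BAR), a drug that blocks the JAK1 and JAK2 kinases, at day 14 after induction of BMF, and 3 of BMF mice without BAR at day 14. At day 10 there were 5 libraries with BAR and 5 without it. Every group had BMF, and strain, age, the way BMF was induced and the BAR dose are not stated in the labels. The labels describe pooled cells and do not tie each library to an animal of its own, so a p-value here reflects only how far libraries differ, and that spread may be technical.

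A cell copies its DNA once per division. In G1 phase the origin recognition complex, Cdc6 and Cdt1 load the ring of Mcm2 to Mcm7 onto origins. In S phase Cdc45 and the GINS proteins turn that ring into a working helicase, and polymerases alpha, delta and epsilon copy the strands while the clamp Pcna holds them to the template. Many of these genes are targets of E2F transcription factors, which switch them on as a cell leaves G1. Activated CD8+ T cells divide quickly, and signals from cytokine receptors through JAK kinases are among those that drive their division.

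The promoters are shown because binding sites for E2F are what is known to tie these genes together, and the choice of the members did not use sequence. RefSeq promoters of GRCm38.p6, running from 250 bases before to 50 bases after a transcription start, were found for 33 of the 40 members; Mcm4, Gins1, Gins2, Gins4, Pole, Prim2 and Rfc2 had no entry there. At least 1 of the 4 E2F octamers TTTGGCGC, TTTCCCGC, TTTCGCGC and TTTGCCGC, searched on both strands, stood in 13 of the 33 (39.4%), against 704 of 27025 genes in the table (2.6%) and 744 of 32851 promoters (2.26%). The letters CCAAT, searched the same way, stood in 21 of the 33 (63.6%), against 41.1% of all genes. The letters TTTGAA of the cell cycle homology region, an element of genes that peak in mitosis, stood in 5 of the 33 (15.2%), against 20.2% of all genes. The octamers can overlap each other, as in Mcm5 and Mcm6, and CCAAT can overlap the end of an octamer, as in Mcm7. A match is a run of letters, not a shown binding site.

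The 13 genes are printed with 30 bases around a match, 5′ to 3′ on the strand of the gene, with the octamer in capitals:
Orc1, chr4:108579416-108579445, plus strand: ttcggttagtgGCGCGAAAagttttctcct
Cdc6, chr11:98908002-98908031, plus strand: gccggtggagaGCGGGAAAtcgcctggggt
Cdt1, chr8:122568035-122568064, plus strand: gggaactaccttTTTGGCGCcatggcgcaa
Mcm3, chr1:20820275-20820304, minus strand: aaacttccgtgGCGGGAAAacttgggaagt
Mcm5, chr8:75109345-75109374, plus strand: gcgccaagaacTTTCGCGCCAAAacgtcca
Mcm6, chr1:128359797-128359826, minus strand: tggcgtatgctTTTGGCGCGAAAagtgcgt
Mcm7, chr5:138171849-138171878, minus strand: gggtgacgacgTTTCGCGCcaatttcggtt
Gins3, chr8:95633507-95633536, plus strand: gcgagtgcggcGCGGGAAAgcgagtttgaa
Pola1, chrX:93632275-93632304, minus strand: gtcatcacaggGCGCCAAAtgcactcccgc
Pold1, chr7:44548766-44548795, minus strand: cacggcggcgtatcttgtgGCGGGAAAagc
Pole2, chr12:69228162-69228191, minus strand: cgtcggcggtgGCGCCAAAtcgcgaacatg
Rfc3, chr5:151651200-151651229, minus strand: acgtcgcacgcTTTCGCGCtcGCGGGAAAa
Lig1, chr7:13278841-13278870, plus strand: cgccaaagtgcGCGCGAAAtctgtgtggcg

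In Mcm5 and Mcm6 the capitals run on because an octamer on the other strand overlaps the first. For longer context, the 250 bases before the start follow for 3 genes that the results below return to: Mcm5, a helicase subunit higher with BAR at day 10, Mcm6, the most abundant helicase subunit, whose upstream region holds 3 matches, and Pola1, a polymerase subunit lower with BAR at day 14.
Mcm5, chr8:75109259-75109508, plus strand: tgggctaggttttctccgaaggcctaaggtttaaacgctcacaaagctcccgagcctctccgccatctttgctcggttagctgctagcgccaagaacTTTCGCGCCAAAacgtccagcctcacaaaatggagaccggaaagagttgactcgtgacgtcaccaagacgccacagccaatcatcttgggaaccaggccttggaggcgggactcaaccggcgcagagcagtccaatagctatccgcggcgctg
Mcm6, chr1:128359706-128359955, minus strand: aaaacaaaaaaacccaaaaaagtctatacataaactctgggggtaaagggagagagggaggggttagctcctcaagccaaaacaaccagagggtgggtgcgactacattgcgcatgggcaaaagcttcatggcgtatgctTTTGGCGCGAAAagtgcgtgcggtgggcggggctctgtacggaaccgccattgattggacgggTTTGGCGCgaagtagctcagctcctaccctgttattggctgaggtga
Pola1, chrX:93632156-93632405, minus strand: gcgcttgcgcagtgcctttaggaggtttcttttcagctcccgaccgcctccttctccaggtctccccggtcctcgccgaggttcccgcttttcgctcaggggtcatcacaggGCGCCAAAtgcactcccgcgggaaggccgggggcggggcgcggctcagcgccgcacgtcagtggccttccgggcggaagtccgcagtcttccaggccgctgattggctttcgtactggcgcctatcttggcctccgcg

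Every member was expressed in every library. The lowest count of any member was 405, for Orc1, so all 40 passed the filter on low counts along with 14862 genes in all, and none passed only through the group where it was high. Levels are given as CPM, counts scaled to a common library size with edgeR's TMM factors, which correct for differences in composition between libraries. By mean CPM over the 16 libraries, the median member stood at percentile 87.7 of the genes tested, with Orc1 lowest at percentile 50 and Mcm6 highest at percentile 98.7.

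Levels were compared between genes per kilobase of exon. Rrm2, the regulated subunit of ribonucleotide reductase, was highest at 289 CPM per kb, followed by Pcna (206), Mcm6 (149.5), Dut (149) and Rpa2 (145). The lowest were Ticrr (3.91 CPM per kb), which brings Cdc45 to loaded helicases, Orc1 (5.40) and Pole (6.64). The 6 subunits of the MCM ring lay between 76.8 CPM per kb for Mcm2 and 149.5 CPM per kb for Mcm6, while the licensing factors ran from 5.40 (Orc1) to 52.5 (Orc6) and the polymerase and primase genes from 6.64 (Pole) to 63.4 (Pold2). The polymerase and primase range spans several complexes, so it cannot be set against the range within the MCM ring. Within complexes, Pole stood below Pole2, Pola1 below Pola2, Pold1 below Pold2 and Prim2 below Prim1.

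The 40 genes together took 0.596% to 0.645% of counts in BAR libraries and 0.630% to 0.658% in BMF libraries at day 14. At day 10 they took 0.797% to 0.909% in BAR libraries and 0.640% to 0.793% in BMF libraries. The groups overlapped at day 14 and not at day 10, where the gap was narrow, 0.793% against 0.797%. These shares are of plain library totals, the ribosomal precursor RNA Rn45s included, and were not scaled by TMM. At day 10 the TMM factors ran from 1.015 to 1.106 in BAR and from 0.943 to 1.045 in BMF, and a larger factor lowers a scaled level.

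**Figure D1:**
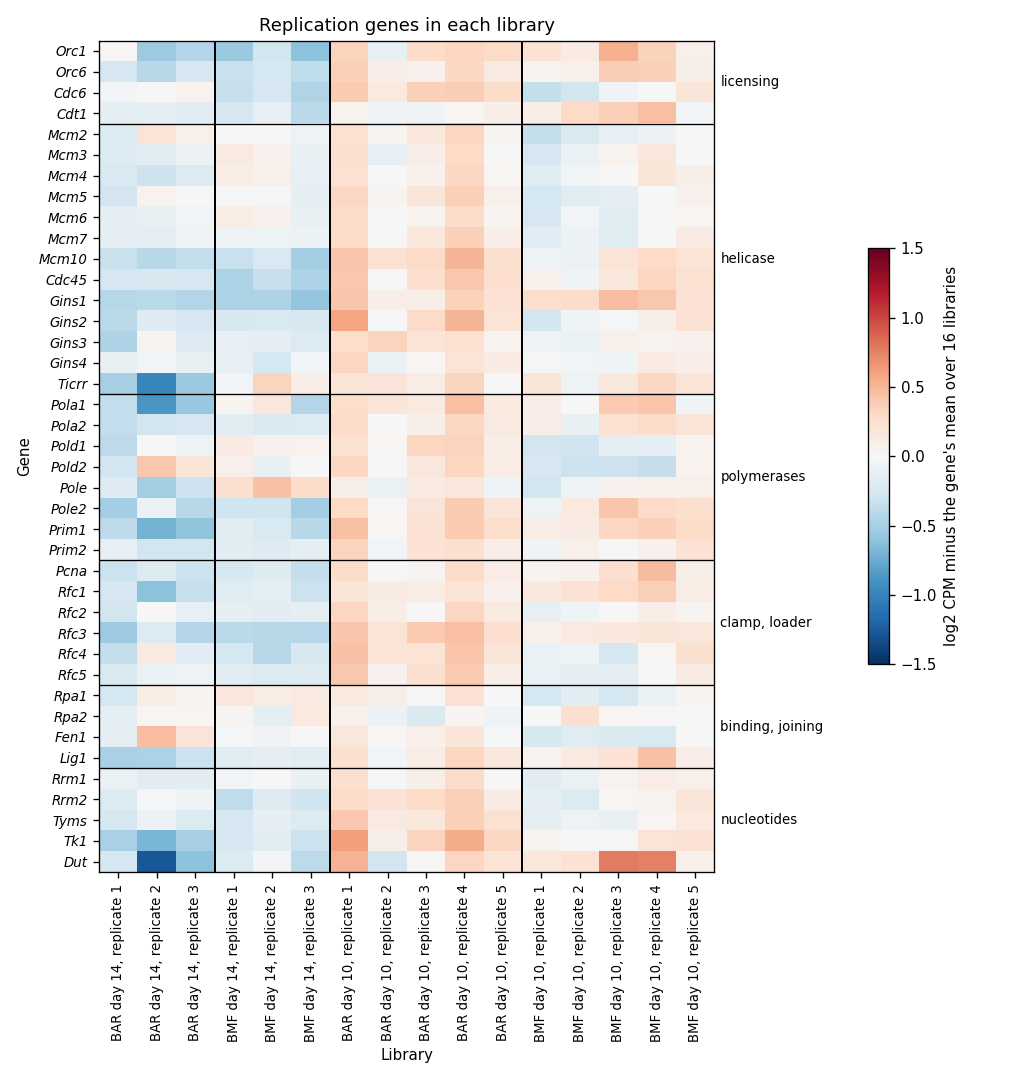
Level of each of the 40 replication genes (rows, by role) in each of the 16 libraries (columns, grouped as BAR day 14, BMF day 14, BAR day 10 and BMF day 10). Colour is the log2 CPM minus the gene's mean over the 16 libraries, red above it and blue below it. Most rows are blue at day 14 in both arms, and BAR day 10 replicates 1 and 4 are the reddest columns.

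Several features of the libraries moved with the groups. Totals ran from 26066991 to 58659873 counts. At an equal depth of 26066991 counts, 15386 to 15598 genes were detected in BAR and 14910 to 15268 in BMF libraries at day 14. At day 10 the range was 17655 to 20983 in BAR and 17273 to 20671 in BMF, so the days did not overlap. The ribosomal precursor RNA Rn45s took 0.714% to 2.38% of counts in BAR and 1.70% to 2.52% in BMF at day 14. At day 10 it took 1.22% to 1.43% in BAR and 5.53%, 4.83%, 5.81%, 2.73% and 1.15% in BMF replicates 1 to 5, so BMF replicates 1 to 3 stood apart with over 4%. The defining CD8 T cell markers Cd8a, Cd8b1 and Cd3e were present in every library, and the 7 of 8 CD8 T cell markers found in the table summed to 6401 to 7002 CPM in BAR and 7880 to 9359 CPM in BMF at day 14, and to 5847 to 7468 CPM in BAR and 5657 to 6945 CPM in BMF at day 10. Markers of other marrow cells were present too. The 12 neutrophil and precursor markers summed to 37820 to 49190 CPM in BAR and 2630 to 21380 CPM in BMF at day 14, and to 4659 to 13700 CPM in BAR and 2353 to 9754 CPM in BMF at day 10. The 12 erythroid markers summed to 340.0 to 660.1 CPM in BAR and 13.6 to 39.7 CPM in BMF at day 14, and to 115 to 230.5 CPM in BAR and 77.3 to 156 CPM in BMF at day 10, with Hba-a1, Hba-a2, Hbb-bs and Hbb-bt at 0 in every library.

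**Figure D2:**
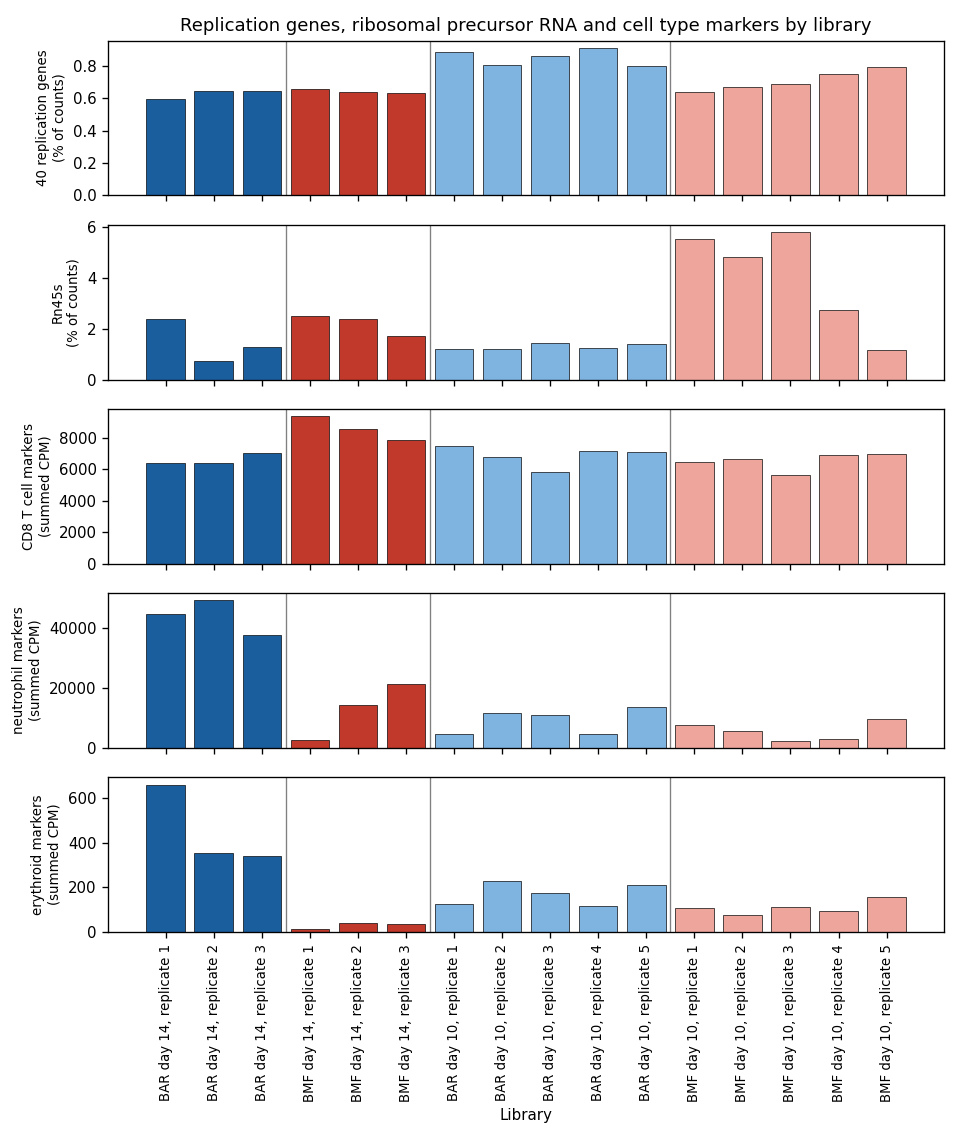
Bars give, for each of the 16 libraries, the share of counts on the 40 replication genes and on Rn45s (percent of counts) and the summed CPM of CD8 T cell, neutrophil and erythroid markers, all from 0. The replication share is highest in the 5 BAR libraries of day 10, the Rn45s share is highest in BMF day 10 replicates 1 to 3, and neutrophil and erythroid markers are highest in the 3 BAR libraries of day 14.

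The first question was whether BAR changed the replication genes at day 10. A modest rise was seen in part of the machinery: 12 of the 40 members were higher with BAR and 0 were lower at an adjusted p under 0.05 (edgeR quasi-likelihood test, Benjamini-Hochberg over the 14862 genes). Of all genes tested, 6.49% were called higher and 7.94% lower, 14.4% in all. At an unadjusted p under 0.05, 19 members were higher and 1 lower, among 2237 genes higher and 2274 lower. DESeq2 called 16 members higher and 1 lower, among 1292 genes higher and 1546 lower. The median log2 fold change of the members was 0.13, against 0.00 over all genes tested, and the changes called ran from 0.25 to 0.42 on the log2 scale. In bulk libraries, a change in the share of dividing cells and a change in RNA per cell cannot be told apart. For 2 members (Mcm2 and Rfc3) the BAR libraries all lay above the BMF libraries, against 3.80% of all genes, and for 0 members all below, against 4.11%.

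These calls depended on how the Rn45s share of the BMF libraries was treated, as did the calls over all genes. With that share as a covariate, or without the 3 BMF libraries over 4% Rn45s, 0 members were called, and the all-gene calls fell to 41 higher and 45 lower with the covariate and to 52 higher and 59 lower without those libraries. At an unadjusted p under 0.05, 1 member was higher and 0 lower by edgeR in each of these fits. The median of the members was 0.07 with the covariate. Without those libraries it was 0.03, over 5 BAR and 2 BMF libraries. When library totals replaced the TMM factors, 22 members were called higher, the median of all genes moved to 0.114 and that of the members to 0.24, and all-gene calls were 2364 higher and 643 lower, against 965 and 1180 with TMM.

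Among the licensing genes, Cdc6, the ATPase that helps to load the MCM ring, was higher with BAR and the other 3 were not called. Cdc6 had 132, 112, 129, 130.1 and 122 CPM in BAR libraries, against 78.8, 83.5, 97.0, 102 and 114 CPM in BMF libraries (log2 fold change 0.39, SE 0.0866, adjusted p = 0.00762). All but the highest BMF library lay below every BAR library. Cdt1, the partner of Cdc6 in loading, had 55.2, 51.1, 51.4, 54.2 and 56.8 CPM in BAR libraries, against 57.0, 65.5, 68.2, 73.0 and 51.9 CPM in BMF libraries (log2 fold change -0.23, SE 0.0837, adjusted p = 0.0718), with 4 BMF libraries above every BAR library. Orc1 and Orc6, subunits of the origin recognition complex, stood at log2 fold changes of -0.04 and 0.00 and were not called.

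In the helicase group 4 of 13 members were higher: the MCM subunits Mcm2 (0.31), Mcm5 (0.30) and Mcm7 (0.25), and Gins2 (0.33), a subunit of the GINS complex. Mcm2 had 301, 265, 286, 321 and 264 CPM in BAR libraries, against 199.9, 221, 236, 243 and 258 CPM in BMF libraries (log2 fold change 0.31, SE 0.085, adjusted p = 0.0217), and the groups did not overlap. Mcm6 had 792, 653, 677, 792 and 671 CPM in BAR libraries, against 548, 634, 579.6, 638 and 665 CPM in BMF libraries (log2 fold change 0.23, SE 0.0784, adjusted p = 0.0605), which did not pass. BAR replicates 1 and 4 held the top values of this gene, and BAR replicate 2 lay within the BMF range. Mcm3 and Mcm4 stood at 0.13 and 0.12 and were not called. The activation factors Mcm10 (0.23), Cdc45 (0.11) and Ticrr (0.01) and the GINS subunits Gins1 (-0.09), Gins3 (0.21) and Gins4 (0.10) were not called either. Gins2 shares 2758 of its 3900 exon bases with Gse1 on the opposite strand, so its value is uncertain where reads were counted without strand, and Mcm7 shares 385 of 2962 with Ap4m1 and Cops6. The same limit holds for Rfc2, which shares 952 bases with Lat2, and Rfc5, which shares 499 with Wsb2. It also holds for Rfc4, which shares 175 of its 1307 exon bases with Eif4a2 on the opposite strand. Among the licensing genes it holds for Orc1, which shares 360 of 3014 with Gm12743 on the opposite strand.

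Both named subunits of polymerase delta, which copies the lagging strand, were higher with BAR. Pold1, the catalytic subunit, had 147, 129, 157, 158 and 135 CPM in BAR libraries, against 104, 103, 115, 115 and 131 CPM in BMF libraries (log2 fold change 0.36, SE 0.0859, adjusted p = 0.0128). Only BMF replicate 5 reached the lower end of the BAR range. Pold2, an accessory subunit, had 127, 104, 116, 128 and 112 CPM in BAR libraries, against 86.6, 83.0, 82.8, 80.7 and 106 CPM in BMF libraries (log2 fold change 0.42, SE 0.109, adjusted p = 0.0186), the largest change of any member at day 10, and here too BMF replicate 5 was the BMF library that overlapped the BAR range. Polymerase epsilon (Pole 0.07, Pole2 0.02), polymerase alpha (Pola1 0.06, Pola2 0.02) and primase (Prim1 0.03, Prim2 0.11) were not called.

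Of the clamp and its loader, 2 of 6 members were higher with BAR, the loader subunits Rfc4 (0.31) and Rfc5 (0.30). Rfc5 had 170.0, 134, 152, 169 and 138 CPM in BAR libraries, against 119.8, 116, 117, 128 and 139.9 CPM in BMF libraries (log2 fold change 0.30, SE 0.076, adjusted p = 0.0164). Pcna, the clamp itself, had 375, 306, 317, 377 and 333 CPM in BAR libraries, against 317, 322, 367, 429 and 328 CPM in BMF libraries (log2 fold change -0.05, SE 0.0865, adjusted p = 0.752), with a BMF library, replicate 4, as the highest of all. Rfc3 had 85.4, 74.3, 84.4, 87.6 and 76.5 CPM in BAR libraries, against 67.5, 70.3, 71.4, 73.1 and 72.1 CPM in BMF libraries and did not pass (log2 fold change 0.20, SE 0.0683, adjusted p = 0.0527), although every BAR library lay above every BMF library. Rfc1 (-0.10) and Rfc2 (0.19) were not called. None of the 4 binding and joining genes was called: Rpa1 and Rpa2, which coat single-stranded DNA, stood at 0.24 and -0.11, the flap nuclease Fen1 at 0.26 and the ligase Lig1 at -0.04.

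In the nucleotide group 3 of 5 members were higher. Tyms, which makes thymidylate from deoxyuridylate, had 199, 165, 169.9, 193 and 176 CPM in BAR libraries, against 137, 143, 139, 153 and 166 CPM in BMF libraries (log2 fold change 0.29, SE 0.0712, adjusted p = 0.0134). Tk1, which recovers thymidine, had 193, 133, 158, 183 and 154 CPM in BAR libraries, against 129.8, 125, 126, 143 and 145 CPM in BMF libraries (log2 fold change 0.30, SE 0.0888, adjusted p = 0.0342). Rrm2 had 758, 726, 769.8, 803 and 681 CPM in BAR libraries, against 571, 545, 633, 652 and 710.1 CPM in BMF libraries (log2 fold change 0.26, SE 0.0783, adjusted p = 0.0318). In all 3 the groups overlapped at the lowest BAR and the highest BMF libraries. Rrm1, the large subunit of ribonucleotide reductase, was at 0.13 and was not called, and Dut, which destroys dUTP, varied most between libraries of a group at day 10, with 437, 251, 308, 381 and 349 CPM in BAR libraries, against 339, 353, 519.8, 513 and 321 CPM in BMF libraries (log2 fold change -0.24, SE 0.201, adjusted p = 0.444). Of the 13 members with an E2F octamer 4 were higher (median log2 0.20), and of the 20 with a promoter that held none 7 were higher (median 0.18).

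Within the BAR group of day 10, replicates 1 and 4 had the highest value for 16 and 22 of the 40 members and replicate 2 had the lowest for 28. Replicates 1 and 4 were also the BAR libraries with the lowest neutrophil sums, 4750 and 4659 CPM, against 11000 to 13700 CPM in the other 3. With the log2 neutrophil sum as a covariate 12 members were called, all higher, among 608 genes higher and 700 lower; Rfc4 and Rrm2 were lost and Mcm6 and Mcm10 gained. All-gene calls also moved when a library was left out. Leaving out BAR replicate 1 or 4 left 6 members called, among 708 or 701 genes higher and 822 or 731 lower. Leaving out BMF replicate 1, 2 or 3 left 5, among 650, 506 or 413 genes higher and 947, 757 or 623 lower. Leaving out BMF replicate 5 gave 17 members higher and 1 lower, among 1856 genes higher and 1759 lower. The calls of Cdc6, Pold1, Rfc5 and Tyms held whichever library was left out. The call of Rfc4 was lost in 9 of these 10 fits and under 14 of 22 alternatives, with a log2 fold change as low as 0.02, that of Gins2 was lost in 7 of the 10 fits, those of Mcm7 and Rrm2 in 6, those of Mcm5 and Tk1 in 5 and those of Mcm2 and Pold2 in 2. B and plasma cell markers, which summed to 29.8 to 317.5 CPM in BAR and 9.68 to 19.2 CPM in BMF at this day, and erythroid markers also moved with the drug; with the erythroid sum as a covariate 10 members were called, all higher, among 368 genes higher and 482 lower.

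**Figure D3:**
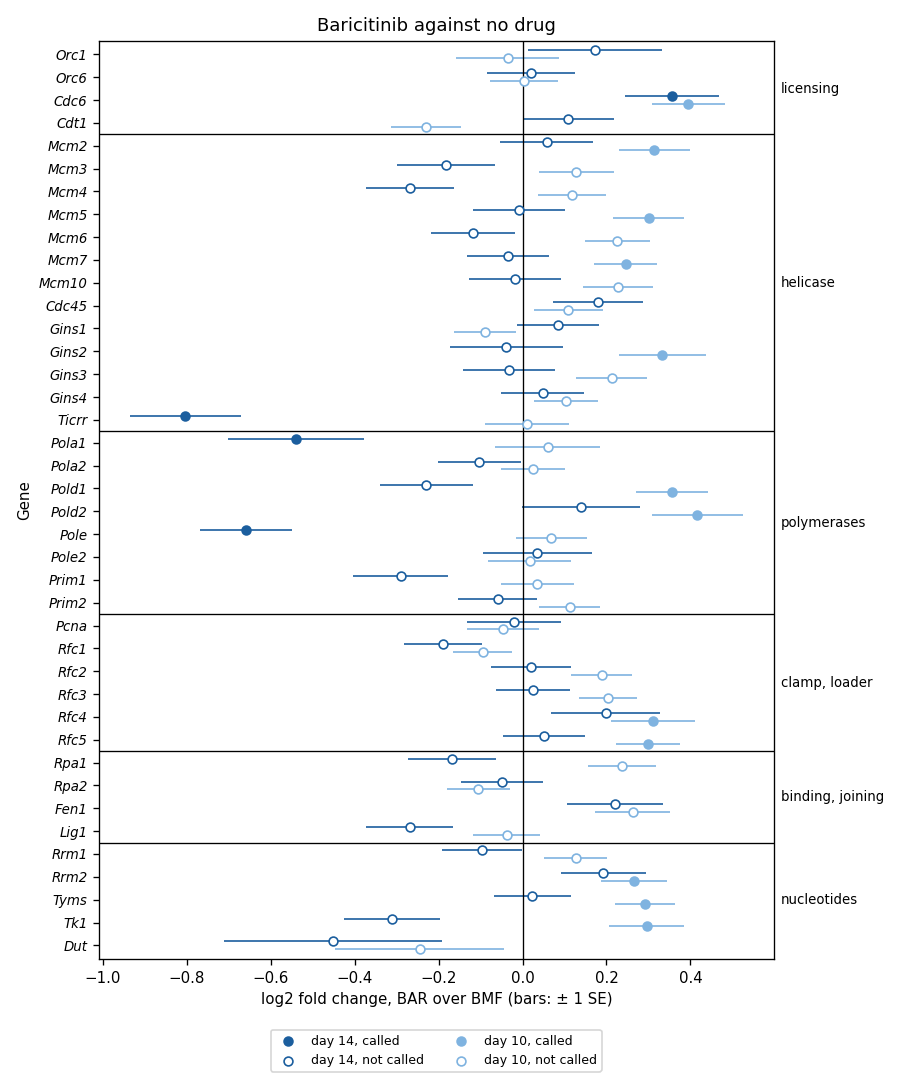
Log2 fold change of BAR over BMF (x axis, bars are 1 SE to each side) for each of the 40 genes (y axis, by role) at day 14 (dark) and day 10 (light). Filled points passed the threshold: 4 at day 14 and 12 at day 10. Ticrr, Pole and Pola1 lie farthest left at day 14, and most day 10 points lie right of 0.

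At day 14 the same comparison gave few calls among the replication genes. Only 1 member was higher with BAR, Cdc6, and 3 were lower, Ticrr, Pole and Pola1, when 12.9% of all genes tested were called higher and 12.2% lower. The median log2 fold change was -0.03, against -0.01 over all genes. The BAR libraries all lay above the BMF libraries for 3 members (21.8% of all genes) and all below for 7 (21.5%). In either direction 4 of 40 members were called, against 25.2% of all genes.

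Ticrr, on chromosome 7 at 79660196 to 79698148 (GRCm38), had the largest change. It had 19.4, 13.9 and 18.6 CPM in BAR libraries, against 26.6, 34.6 and 29.4 CPM in BMF libraries (log2 fold change -0.80, SE 0.132, adjusted p = 0.000375), with no overlap. Pole, the catalytic subunit of the leading strand polymerase epsilon, on chromosome 5 at 110286306 to 110337474, had 42.6, 33.9 and 39.3 CPM in BAR libraries, against 57.6, 66.1 and 59.02 CPM in BMF libraries (log2 fold change -0.66, SE 0.109, adjusted p = 0.00042), again with no overlap. Pola1, the catalytic subunit of polymerase alpha, on chromosome X at 93304767 to 93632155, had 53.8, 37.9 and 47.1 CPM in BAR libraries, against 71.8, 78.3 and 51.4 CPM in BMF libraries (log2 fold change -0.54, SE 0.162, adjusted p = 0.0224), and here BMF replicate 3 fell within the BAR range. Cdc6, on chromosome 11 at 98907801 to 98923940, had 98.3, 101 and 105 CPM in BAR libraries, against 79.4, 84.4 and 73.7 CPM in BMF libraries (log2 fold change 0.36, SE 0.112, adjusted p = 0.0264) without overlap, and was the member called in both BAR comparisons.

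The partners of these genes in their complexes were not called. Pole2, the second subunit of polymerase epsilon, stood at 0.04, so the ratio of Pole to Pole2 in CPM was 2.14, 1.27 and 1.85 in BAR libraries, against 2.49, 2.85 and 2.95 in BMF libraries. At day 10 that ratio was 1.43 to 1.63 with BAR and 1.34 to 1.53 without it. Pole2 shares 245 of its 1706 exon bases with Gm49384 on the same strand, so its level and the ratio are uncertain. Pola2 stood at -0.10, Prim1 at -0.29 (adjusted p = 0.0665) and Prim2 at -0.06. Pold1 was at -0.23 and Pold2 at 0.14, neither called. The MCM subunits ran from -0.27 (Mcm4) to 0.06 (Mcm2). Mcm6 had 595, 603 and 632 CPM in BAR libraries, against 703, 682 and 600.2 CPM in BMF libraries (log2 fold change -0.12, SE 0.101, adjusted p = 0.422).

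In the other roles no member was called. Lig1, which seals the nicks between Okazaki fragments, had 162, 163 and 182 CPM in BAR libraries, against 200, 207 and 204 CPM in BMF libraries (log2 fold change -0.27, SE 0.103, adjusted p = 0.0628), and Tk1 had 89.5, 77.8 and 88.2 CPM in BAR libraries, against 105, 112 and 99.7 CPM in BMF libraries (log2 fold change -0.31, SE 0.115, adjusted p = 0.0548). In both the BAR libraries lay below the BMF libraries, yet neither passed. Rfc1, the largest loader subunit, had 91.6, 71.3 and 85.7 CPM in BAR libraries, against 96.5, 99.4 and 87.6 CPM in BMF libraries (log2 fold change -0.19, SE 0.0922, adjusted p = 0.14), and Pcna was at -0.02. Fen1 had 252, 379 and 315 CPM in BAR libraries, against 272, 266 and 274 CPM in BMF libraries (log2 fold change 0.22, SE 0.114, adjusted p = 0.168), with BAR replicates 2 and 3 above every BMF library and BAR replicate 1 below them. Fen1 shares 2038 of its 2422 exon bases with Tmem258 and Gm10143 on the opposite strand, so this value may not be that of Fen1 alone.

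Ticrr and Pole have the longest exons of the set, 7199 and 7423 bases, and were the members over 6 kb. Over the 2345 genes of that length the median log2 fold change with BAR was -0.12 at day 14 and -0.12 at day 10, while Ticrr and Pole stood at 0.01 and 0.07 at day 10. The erythroid sum separated the groups of day 14 fully, with 8 of 8 erythroid markers tested called higher with BAR and 5 of 7 CD8 T cell markers called lower. The 6 stem and progenitor markers also separated the groups, with sums of 35.5 to 43.9 CPM in BAR and 10.6 to 17.9 CPM in BMF, and 4 of them were called higher. With the erythroid sum as a covariate edgeR called 0 members and 0 of all genes. At an unadjusted p under 0.05 that fit gave 0 members higher and 2 lower, and Ticrr was at -1.22 (adjusted p = 0.506). With the neutrophil sum as a covariate 2 members were called, among 528 genes higher and 477 lower. The calls of Ticrr and Pole held under 16 of 17 alternatives, the erythroid covariate being the exception, and those of Cdc6 and Pola1 under 10 and 9. Leaving out BAR replicate 2, BAR replicate 3 or BMF replicate 1 left 2 members called. The all-gene calls of these fits were 1182, 1508 or 1118 higher and 971, 1390 or 1171 lower, against 1923 and 1815 with all libraries.

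**Figure D4:**
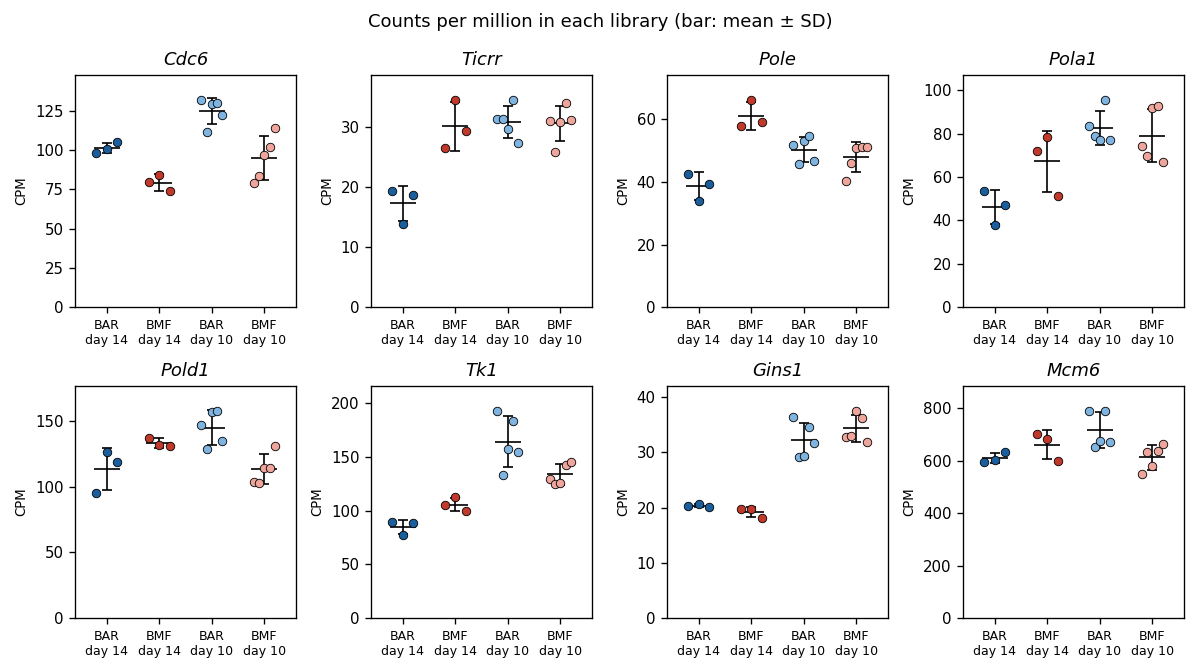
CPM in each library (points) with the mean and SD (bars) for Cdc6, Ticrr, Pole, Pola1, Pold1, Tk1, Gins1 and Mcm6, with BAR day 14, BMF day 14, BAR day 10 and BMF day 10 from left to right and axes from 0. Ticrr is lowest in the 3 BAR libraries of day 14, Pole is lower there than in the BMF libraries of that day, Cdc6 is higher with BAR at both days, and Gins1 is lower at day 14 in both arms.

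Whether the effect of BAR differed between the days was tested directly as an interaction. It was lower at day 14 than at day 10 for 4 members and higher for 0, against 5.33% and 5.0% of all genes tested and 10.3% in either direction (edgeR). At an unadjusted p under 0.05, 14 members were lower and 1 higher, among 1980 genes lower and 1919 higher. DESeq2 called 7 members lower and 0 higher, among 1016 genes lower and 1116 higher. The 4 members called by edgeR were Ticrr (log2 difference -0.81, SE 0.165, adjusted p = 0.0056), Pole (-0.73, SE 0.138, adjusted p = 0.0036), Pold1 (-0.58, SE 0.14, adjusted p = 0.0146) and Tk1 (-0.61, SE 0.145, adjusted p = 0.0145). For Ticrr and Pole the BAR effect was near 0 at day 10, while for Pold1 and Tk1 it was -0.23 and -0.31 at day 14, against 0.36 and 0.30 at day 10. The difference for Cdc6 was -0.04 (SE 0.141, adjusted p = 0.91). The median over the 40 members was -0.23, against 0.02 over all genes. Rpa1 and Cdt1, with the smallest p in their roles, stood at -0.40 (adjusted p = 0.0588) and 0.34 (adjusted p = 0.12) and were not called. Without the 3 BMF libraries over 4% Rn45s, 2 members were called, Ticrr and Pole, and with the erythroid sum as a covariate 0 were, as were 0 of all genes (edgeR, 0 members higher and 2 lower at an unadjusted p under 0.05). In that fit the log2 differences were -1.17 for Ticrr, -0.86 for Pole, -0.30 for Pold1 and -0.42 for Tk1, and over all 26 alternatives those of Ticrr lay between -1.17 and -0.69 and those of Pole between -0.86 and -0.63.

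Between the days, most replication genes were called lower at day 14 than at day 10 under BAR, and fewer than 20 of the 40 were called lower without drug. Called or not, the log2 fold change was below 0 for 38 members under BAR and for 30 without drug. Of the 14862 genes tested, it was below 0 for 7944 and 7989. Without drug, 18 of 40 members were lower and 2 higher, against 20.9% and 17.6% of all genes tested (38.5% in either direction), with a median log2 fold change of -0.23 against -0.05 over all genes. The day 14 libraries all lay below the day 10 libraries for 20 members (19.6% of all genes) and all above for 3 (17.1%). Under BAR, 31 of 40 were lower and 0 higher, against 19.8% and 19.2% of all genes and 39.1% in either direction, with a median of -0.40 against -0.04. At an unadjusted p under 0.05, 34 members were lower and 0 higher under BAR, among 3758 genes lower and 3486 higher. DESeq2 called 33 members lower and 0 higher there, among 3165 genes lower and 3078 higher. Under BAR the day 14 libraries all lay below for 30 members (21.2% of all genes) and all above for 0 (20.1%). These comparisons use the same libraries as the BAR comparisons, so values are only set side by side. The arms were compared by the interaction above, which called Ticrr, Pole, Pold1 and Tk1. The day and the processing of a day's libraries cannot be told apart, as the labels give no batch. The number of genes detected also separated the days in both arms, and its part in these calls was not tested.

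All 4 licensing genes were lower at day 14 without drug, and 3 of 4 under BAR. Orc6 had 69.2, 61.5 and 69.2 CPM at day 14, against 106, 88.2, 86.2, 102 and 90.3 CPM at day 10, under BAR (log2 fold change -0.50, SE 0.0951, adjusted p = 0.000616). Without drug it had 65.2, 68.7 and 63.3 CPM at day 14, against 84.8, 87.1, 106, 106 and 87.3 CPM at day 10 (log2 fold change -0.52, SE 0.0952, adjusted p = 0.000484). The days did not overlap in either arm. Cdt1 had 44.7, 48.8 and 40.1 CPM at day 14, against 57.0, 65.5, 68.2, 73.0 and 51.9 CPM at day 10, without drug (log2 fold change -0.50, SE 0.0984, adjusted p = 0.00084), and stood at -0.16 (adjusted p = 0.193) under BAR. Orc1 stood at -0.54 under BAR and -0.74 without drug, and Cdc6 at -0.30 and -0.26. The Cdc6 call without drug (adjusted p = 0.0461) was lost under 11 of 19 alternatives, among them 6 of the 8 fits that left out a library. Under BAR the Cdc6 call was lost under 6 of 18. Without drug the calls of Orc6 and Cdt1 held under all 19.

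In the helicase group the ring and the factors that activate it are given in turn. Without drug none of Mcm2 to Mcm7 was called, with log2 fold changes from -0.02 (Mcm7) to 0.13 (Mcm2), while Gins1 (-0.84), Cdc45 (-0.58) and Mcm10 (-0.47) were lower. Gins1 had 19.7, 19.8 and 18.2 CPM at day 14, against 32.9, 33.0, 37.6, 36.3 and 31.9 CPM at day 10, without drug (SE 0.0889, adjusted p = 4.8e-06), the largest fall of any member there. Under BAR it had 20.3, 20.7 and 20.1 CPM at day 14, against 36.4, 29.2, 29.4, 34.6 and 31.7 CPM at day 10 (log2 fold change -0.66, SE 0.0881, adjusted p = 2.64e-05). Gins1 thus had day 14 values in a narrow band in both arms, below every day 10 library. Under BAR 9 of 13 helicase genes were lower, among them Ticrr (-0.84), Mcm10 (-0.71), Gins2 (-0.61), Gins3 (-0.41), Cdc45 (-0.51) and 3 MCM subunits, Mcm4 (-0.37), Mcm7 (-0.30) and Mcm5 (-0.27). Mcm2 (-0.13), Mcm3 (-0.26), Mcm6 (-0.23) and Gins4 (-0.22) were not called.

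Of the 8 polymerase and primase genes, 7 were lower under BAR, and 4 were lower and 1 higher without drug. The primase subunit Prim1 had 61.2, 49.0 and 52.9 CPM at day 14, against 109.6, 81.7, 92.8, 105 and 95.9 CPM at day 10, under BAR (log2 fold change -0.84, SE 0.103, adjusted p = 1.41e-05). Without drug it had 71.1, 68.4 and 59.9 CPM at day 14, against 86.2, 87.5, 99.7, 103 and 97.4 CPM at day 10 (log2 fold change -0.51, SE 0.102, adjusted p = 0.000961), so no day 14 library reached a day 10 library in either arm. Pola1 was lower under BAR (-0.83) and at -0.24 without drug, not called. Pola2, Pole2 and Prim2 were lower in both arms, with -0.46, -0.56 and -0.40 under BAR and -0.34, -0.57 and -0.22 without drug. The Prim2 call without drug was lost under 11 of 19 alternatives. Pole was lower at day 14 under BAR (-0.38, SE 0.0986, adjusted p = 0.00622) and higher at day 14 without drug (0.35, SE 0.0964, adjusted p = 0.00923). That rise did not pass with the erythroid covariate, without BMF day 14 replicate 2, or without the 3 BMF libraries over 4% Rn45s. Pold1 was lower under BAR (-0.35) and at 0.23 without drug, not called, and Pold2 was not called in either arm (-0.06 under BAR, 0.22 without drug).

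The clamp and all 5 loader subunits were lower under BAR, and 3 of the 6 without drug. Rfc3 had 44.0, 55.8 and 47.5 CPM at day 14, against 85.4, 74.3, 84.4, 87.6 and 76.5 CPM at day 10, under BAR (log2 fold change -0.73, SE 0.0809, adjusted p = 6.2e-06). Without drug it had 48.7, 48.3 and 47.8 CPM at day 14, against 67.5, 70.3, 71.4, 73.1 and 72.1 CPM at day 10 (log2 fold change -0.55, SE 0.0806, adjusted p = 6.81e-05). Pcna had 248, 267 and 248 CPM at day 14, against 375, 306, 317, 377 and 333 CPM at day 10, under BAR (log2 fold change -0.43, SE 0.101, adjusted p = 0.00356), and 262, 270.5 and 242 CPM at day 14, against 317, 322, 367, 429 and 328 CPM at day 10, without drug (log2 fold change -0.45, SE 0.101, adjusted p = 0.00233). For both genes every day 14 library lay below every day 10 library of its arm. Rfc1 was lower in both arms (-0.54 under BAR, -0.44 without drug), and Rfc2, Rfc4 and Rfc5 under BAR (-0.31, -0.40 and -0.38) but not by the test without drug (-0.14, -0.29 and -0.14).

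Few of the genes for single-stranded DNA and Okazaki fragments were called. Lig1 was lower in both arms (-0.59 under BAR, -0.36 without drug), while Rpa2 and Fen1 were called in neither. Rpa1 had 539.7, 517 and 527 CPM at day 14, against 401, 430.0, 398, 446 and 495 CPM at day 10, without drug, and was higher there (log2 fold change 0.28, SE 0.0929, adjusted p = 0.023). That call was lost under 8 of 19 alternatives, among them library totals, the Rn45s and erythroid covariates, and the removal of BMF day 10 replicate 1 or 3 or of BMF day 14 replicate 1 or 3. Under BAR it stood at -0.12 (adjusted p = 0.317). Nucleotide genes were all lower under BAR (5 of 5), and 3 of 5 without drug. Tk1 had 89.5, 77.8 and 88.2 CPM at day 14, against 193, 133, 158, 183 and 154 CPM at day 10, under BAR (log2 fold change -0.95, SE 0.106, adjusted p = 7.36e-06), the largest fall of any member, and 105, 112 and 99.7 CPM at day 14, against 129.8, 125, 126, 143 and 145 CPM at day 10, without drug (log2 fold change -0.34, SE 0.104, adjusted p = 0.0155). Rrm2 was lower by log2 fold changes of -0.35 under BAR and -0.28 without drug, and Dut by -0.84 and -0.64. The Dut call without drug was lost under 11 of 19 alternatives. Tyms (-0.44) and Rrm1 (-0.27) were lower under BAR and not called without drug (-0.17 and -0.05).

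Neutrophil markers moved with the day under BAR, where 9 of 12 were higher at day 14, and erythroid markers moved in opposite directions, with 5 of 8 tested higher under BAR and 7 of 8 lower without drug. Under BAR 5 of 6 stem and progenitor markers were higher at day 14 and 6 of 8 B and plasma cell markers lower, and without drug 6 of 7 CD8 T cell markers were higher and 4 of 8 dendritic cell markers lower. The part of these lists in the changes of the members was not tested beyond the neutrophil and erythroid covariates. With the neutrophil sum as a covariate 9 members were called lower under BAR (median log2 -0.31), while all-gene calls dropped to 1092 lower and 754 higher, against 2949 and 2859 without the covariate. Without drug that covariate gave 15 members lower and 2 higher (median -0.18), among 3102 genes lower and 2432 higher. With the erythroid sum as a covariate 11 members were called lower under BAR (median -0.34), among 1003 genes lower and 844 higher. Without drug it gave 10 members lower (median -0.31), among 697 genes lower and 1168 higher, against 3105 and 2623 without the covariate. Of the 13 members with an E2F octamer 10 were lower under BAR and 6 without drug, and of the 20 without one 15 and 10 were.

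**Figure D5:**
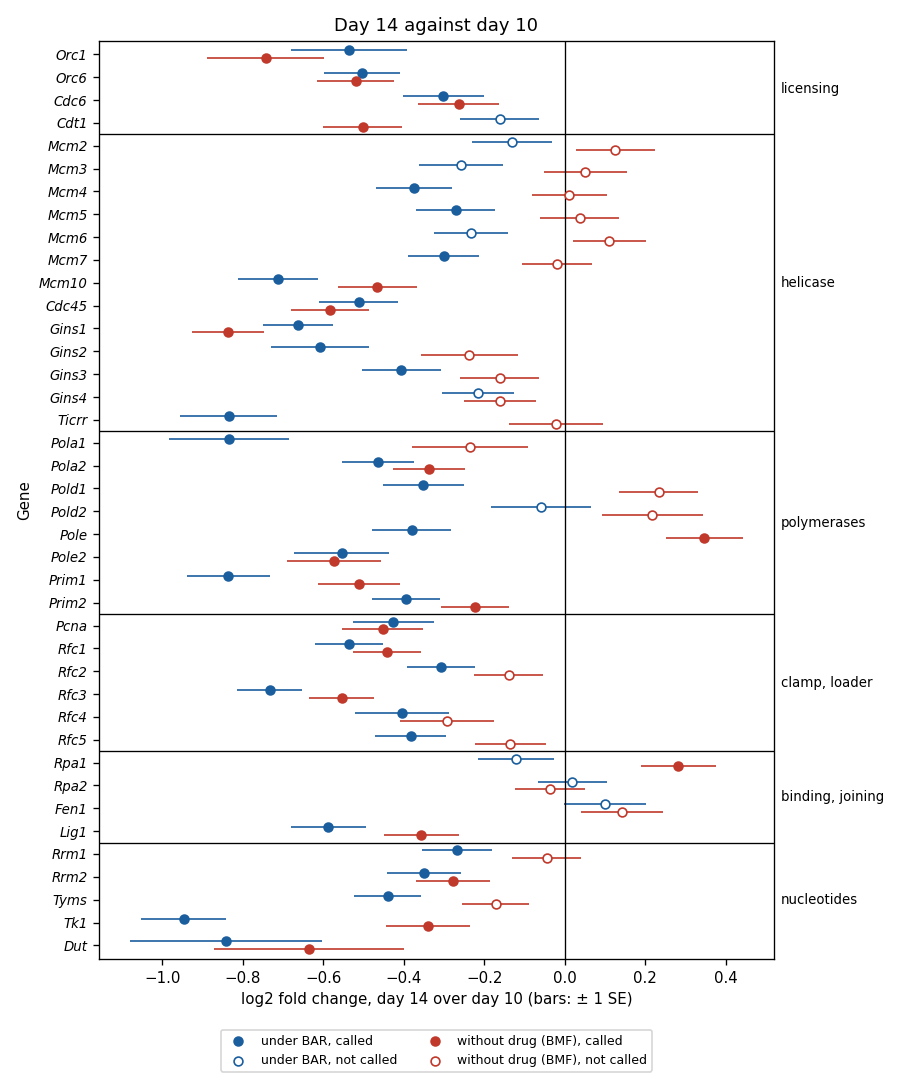
Log2 fold change of day 14 over day 10 (x axis, bars are 1 SE to each side) for each of the 40 genes (y axis, by role) under BAR (blue) and without drug (red). Filled points passed the threshold: 31 under BAR and 20 without drug. Nearly all blue points lie left of 0, Mcm2 to Mcm7 lie near 0 without drug, and Pole lies on opposite sides in the arms.

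Genes around the replication machinery gave a wider view, from 3 lists of 46, 25 and 25 genes that hold no member. Of 46 other replication fork and nucleotide genes, 3 were higher and 0 lower with BAR at day 10 (median log2 0.01), against 6.49% and 7.94% of all genes. The calls included Chtf18 (0.39), a subunit of an alternative clamp loader, and Asf1b (0.34), a histone chaperone. At day 14, 3 were higher and 5 lower (median -0.05), against 12.9% and 12.2% of all genes, among them Samhd1 (0.82), which breaks down deoxynucleotides, and Dnmt1 (-0.62), the maintenance DNA methyltransferase. Between the days 31 were lower and 1 higher under BAR (median -0.43), against 19.8% and 19.2% of all genes. Without drug 28 were lower and 1 higher (median -0.33), against 20.9% and 17.6%.

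The E2F pathway and S phase checkpoint list of 25 genes split by direction at day 10, with 5 higher and 3 lower (median log2 0.03), against 6.49% and 7.94% of all genes. Ccne2, a cyclin of S phase entry, was at 47.6 ± 5.15 CPM with BAR and 31.9 ± 5.5 CPM without it (SD, n = 5 each, log2 fold change 0.58, SE 0.103, adjusted p = 0.00226). The inhibitors of cyclin-dependent kinases were lower: Cdkn1a was at 8.62 ± 0.827 CPM with BAR and 16.7 ± 4.37 CPM without it (log2 fold change -0.95, SE 0.14, adjusted p = 0.000512), and Cdkn1b was at 31.9 ± 4.89 CPM with BAR and 58.5 ± 17.7 CPM without it (log2 fold change -0.87, SE 0.199, adjusted p = 0.0128). E2f1 was not called (0.10). The genes of the 3 lists were not followed with the Rn45s covariate or without the 3 BMF libraries over 4% Rn45s. Over all genes, calls at day 10 fell to 41 higher and 45 lower with that covariate. Without those libraries they fell to 52 higher and 59 lower. At day 14, 3 were higher and 7 lower (median -0.14), against 12.9% and 12.2% of all genes, with Ccne1 at 0.53 and the checkpoint kinase Atr at -0.64. Between the days 11 were lower and 1 higher under BAR (median -0.20), against 19.8% and 19.2% of all genes. Without drug 8 were lower and 4 higher (median -0.19), against 20.9% and 17.6%.

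Many mitosis genes were lower with BAR at day 14. Of 25, 14 were lower and 0 higher at day 14 (median log2 -0.36), against 12.2% and 12.9% of all genes. At day 10, 4 were higher and 1 lower (median 0.08), against 6.49% and 7.94%, and the interaction called 10 lower and 0 higher (median -0.39), against 5.33% and 5.0%. Mki67, a marker of cycling cells, was at 271 ± 37.3 CPM with BAR and 384 ± 71.6 CPM without it at day 14 (SD, n = 3 each, log2 fold change -0.50, SE 0.165, adjusted p = 0.0334). Cenpf, a protein of the centromere, was at 53.2 ± 8.17 CPM with BAR and 89.9 ± 8.15 CPM without it (log2 fold change -0.76, SE 0.149, adjusted p = 0.00154). At day 10 Mki67 was at 540 ± 34.8 CPM with BAR and 658 ± 140 CPM without it (SD, n = 5 each, log2 fold change -0.29, SE 0.127, adjusted p = 0.139). The interaction did not call Mki67 (-0.215, SE 0.208, adjusted p = 0.558). Between the days all 25 were lower under BAR (median -0.75), against 19.8% of all genes, and 17 were lower and 0 higher without drug (median -0.33), against 20.9% and 17.6%. With the erythroid sum as a covariate, 0 of all genes were called with BAR at day 14 and 0 by the interaction, the mitosis genes included. The difference between this list and the 40 replication genes was not tested.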

How the data were processed

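The table holds raw read counts per gene symbol for 16 libraries in 4 groups, as deposited by the authors. Per the submitters' processing notes, HISAT2 2.0.5 was used with the mm10 build. How reads were assigned to genes, with which annotation and whether by strand, is not given in the sources used here. Of 24421 entries, 27 were symbols turned into dates and were left out of totals and tests. Library totals ran from 26066991 to 58659873 counts, and a chi-square comparison of the 26 pairs of libraries within groups gave 11.2 to 347 per degree of freedom, so no pair was treated as a single library deposited again.

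Genes were kept by edgeR's filterByExpr, scaled by TMM and fitted with a mean per group over all 16 libraries in edgeR 4.0.16 (quasi-likelihood, robust; R 4.3.3), with Benjamini-Hochberg adjustment over 14862 genes and a threshold of 0.05. An SE is the size of the log2 fold change divided by the root of the F statistic. Marker sums are plain CPM per library. Alternatives used DESeq2 1.42.0, limma 3.58.1 (voom), other scalings and filters, covariates and leaving out libraries. The edgeR fit was tested on simulated counts. Exon lengths and gene positions come from GENCODE vM21 (GRCm38), promoters from RefSeq.

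Replicate numbers were given in accession order and only name libraries. The members, the lists and the tests were chosen with earlier results of these data known. Values per library are given, in each role, for the member with the smallest p of each comparison and the member with the highest mean CPM; Pold2, Pola1 and Dut were added after their values were seen. Of the other lists, the genes named are among the pair with the smallest p in each direction, with Mki67, Top2a and E2f1 allowed.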

Additional observations from a re-analysis of the deposited data

Results flagged for a closer look

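Within groups of 5 libraries, a library far from the rest was found in 4 of 80 tests of a member in a group, and chance flags about 1 in 20. Orc1 was at 14.7 CPM in BAR day 10 replicate 2, with the next library at 19.1 CPM. Pold2 was at 106 CPM in BMF day 10 replicate 5, with the next at 86.6 CPM, and Fen1 was at 278 CPM in the same library, with the next at 243 CPM. Rpa2 was at 309 CPM in BMF day 10 replicate 2, with the next at 266 CPM.

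The effect of BAR differed between the days by the interaction test for 4 of the 40 members, all lower at day 14. Of all genes tested, 10.3% were called in either direction, 5.33% lower and 5.0% higher, so the members were not called more often than other genes. Each difference is the log2 effect at day 14 minus that at day 10. The differences were -0.81 for Ticrr, -0.73 for Pole, -0.61 for Tk1 and -0.58 for Pold1.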

How the results depend on the processing

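No call of a member changed direction under any alternative run. BAR against BMF at day 10 (12 members called) moved to 22 with library totals, 0 with the Rn45s covariate, 0 without the BMF libraries over 4% Rn45s (chosen after seeing the data) and 1 at an adjusted p under 0.01, and lay between 5 and 18 when 1 library was left out. BAR against BMF at day 14 (4 called) moved to 0 with the erythroid covariate, 2 with the neutrophil covariate and 2 at 0.01, and lay between 2 and 6 when 1 library was left out (6 without BAR replicate 1). The interaction (4 called) moved to 8 with library totals, 7 with DESeq2, 0 with the erythroid covariate, 2 at 0.01 and 2 without the BMF libraries over 4% Rn45s, and lay between 3 without BMF day 14 replicate 2 and 7 without BMF day 10 replicate 5. All-gene calls of the interaction were 546 higher and 1241 lower with library totals, against 743 and 792 with TMM. Day 14 against day 10 without drug (20 called) moved to 10 with the erythroid covariate and lay between 14 and 19 when 1 library was left out. Under BAR (31 called) it moved to 11 with the erythroid and 9 with the neutrophil covariate, and lay between 27 and 34 when 1 library was left out; with library totals the median of all genes moved to -0.147 and that of the members to -0.51, with 1883 genes higher and 4238 lower, against 2859 and 2949 with TMM. The cause of these moves was not tested. The number of genes detected as a covariate was also chosen after seeing the data. With it 11 members were higher and 1 lower with BAR at day 10, among 1056 genes higher and 1266 lower. At day 14, 2 members were higher and 4 lower, among 1974 genes higher and 1775 lower. This covariate was not run for the comparisons between days. No paired analysis was possible because the labels number no replicates and tie no libraries together across groups; the numbers used here only name libraries within a group.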
